A study of Mus musculus with 12 samples.

Results

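The genes of the major histocompatibility complex (MHC) and of antigen presentation were taken as every gene of GENCODE vM21 whose symbol starts with *H2-*, which gave 45 genes, plus the 8 genes *B2m*, *Tap1*, *Tap2*, *Tapbp*, *Nlrc5*, *Psmb8*, *Psmb9* and *Psmb10*. All 53 genes were among the 49315 genes in the count tables, and 29 of them passed the filter on low counts that left 16637 genes for testing. Of the remaining genes, 13 were at 0 reads in all 12 libraries, and 11 had some reads but too few to be tested, with at most 23 reads in any library (*H2-Eb1* in the *Gpr124-/-* embryo ME5). The genes lay on chromosome 17 of GRCm38 in 50 cases, on chromosome 8 in 2 cases (*Nlrc5* and *Psmb10*) and on chromosome 2 in 1 case (*B2m*).

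RNA-seq was performed on endothelial cells (CD31+) that had been sorted from mouse forebrains at E15.5, with 1 embryo per library. The groups were 4 wild-type embryos (JE1, JE6, KE8 and LE6), 4 *Gpr124ΔC/ΔC* embryos (JE3, JE4, LE2 and LE5) and 4 *Gpr124-/-* embryos (KE4, ME1, ME4 and ME5). *Gpr124*, listed as *Adgra2*, encodes a receptor of brain endothelium that takes part in WNT signaling. The sort kept cells positive for CD31 and negative for CD140b, CD45 and the dead-cell stain 7AAD, so that pericytes and leukocytes were gated out. The ΔC allele ends the protein before its intracellular domain with a V5 tag and a stop codon. It was made in C57Bl/6 zygotes, and the founders were mated to B6DF1 females, which are hybrids of C57BL/6 and DBA/2. The *Gpr124-/-* embryos carried a lacZ allele on both chromosomes, and the strain of that line is not given in the sources used here. Both alleles are constitutive and so affect every cell of the embryo, not endothelium alone. The first letters of the embryo labels (J, K, L and M) have no stated meaning. Wild-type and *Gpr124ΔC/ΔC* libraries share the letters J and L, the letter K holds 1 wild-type library (KE8) and 1 *Gpr124-/-* library (KE4), and the letter M holds *Gpr124-/-* libraries only.

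MHC class I molecules present peptides made inside the cell to CD8 T cells and NK cells, and consist of a polymorphic heavy chain paired with the light chain β2-microglobulin. The classical (class Ia) heavy chains *H2-K1* and *H2-D1* lie at separate places in the mouse H2 region, with the nonclassical (class Ib) Q, T and M genes beyond *H2-D1*. Peptides are cut by the proteasome, whose immunoproteasome subunits replace constitutive ones under interferon, are pumped into the endoplasmic reticulum by the TAP transporter and are loaded with the help of tapasin. Class II molecules present peptides taken up from outside and are made mainly by professional antigen-presenting cells. The H2 region is among the most polymorphic parts of the mouse genome, and inbred strains differ in its alleles and in the number of Q and T genes.

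The libraries held 13877572 to 22551163 reads assigned to genes. *Adgra2* had 4.03 to 6.29 TPM (reads per gene length, with every library brought to a common total) in *Gpr124-/-*, 28.3 to 51.1 TPM in wild type and 34.1 to 63.4 TPM in *Gpr124ΔC/ΔC*. All 12 endothelial markers were detected in every library, among them *Pecam1*, which encodes CD31, at 414 to 857 TPM. Their summed level was 13355 to 17269 TPM in wild type, 8660 to 14158 TPM in *Gpr124ΔC/ΔC* and 8092 to 9651 TPM in *Gpr124-/-*, where *Cldn5* was called lower and *Emcn* higher. *Cldn5* alone had 7613 to 10108 TPM in wild type and 1877 to 2721 TPM in *Gpr124-/-*, and so made up most of the difference in that sum. Of 10 pericyte markers *Abcc9* was called higher and *Rgs5* lower in *Gpr124-/-* than in wild type, and of 12 neural markers *Stmn2* was called higher. The part of these differences in the levels of the MHC genes was not tested. Of the 18 leukocyte markers looked at, 7 had enough reads to be tested. *Ptprc*, which encodes CD45, had 0 to 10 reads per library, with the 10 reads in KE8, and the leukocyte markers summed to 342 to 441 TPM in wild type, 201 to 351 TPM in *Gpr124ΔC/ΔC* and 261 to 356 TPM in *Gpr124-/-*. Of these sums, *Laptm5* made up 249.96 to 336 TPM in wild type, 118 to 206 TPM in *Gpr124ΔC/ΔC* and 108 to 148 TPM in *Gpr124-/-*. *C1qa*, *C1qb* and *C1qc*, complement genes of macrophages and microglia, had 31, 43 and 35 reads in KE4 and at most 18 reads in any other library. Of 9 erythroid markers tested, 5 were higher in *Gpr124-/-* than in wild type and none lower, and their summed level was 17842 to 54454 TPM in *Gpr124-/-* against 7083 to 11843 TPM in wild type. Fewer cells of a type and less RNA per cell cannot be told apart in these bulk libraries.

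The light chain *B2m* was by far the most abundant of the 53 genes, and the class Ia heavy chain *H2-D1* came next. In TPM, which divides by gene length and so allows genes to be compared, *B2m* had 1599.9 in JE1, 1286 in JE6, 2040.2 in KE8 and 1524 in LE6 among wild-type libraries. It had 1681 in JE3, 1905 in JE4, 1909 in LE2 and 1746 in LE5 among *Gpr124ΔC/ΔC* libraries and 2079 in KE4, 1983 in ME1, 1674 in ME4 and 1558 in ME5 among *Gpr124-/-* libraries. The ranges of all 3 genotypes overlapped. Averaged over the 12 libraries, the order of levels below *B2m* (1749 ± 239.6 TPM, SD) was *H2-D1* (303 ± 110.1 TPM), *Tapbp* (80.1 ± 15 TPM), *H2-K1* (58.8 ± 33.5 TPM), *Psmb10* (44.4 ± 8.54 TPM), *H2-T23* (29.2 ± 13.7 TPM) and *H2-M3* (26.3 ± 4.01 TPM). The library ranges of *B2m* and *H2-D1*, and of *H2-D1* and *Tapbp*, did not overlap, while from *Tapbp* to *H2-M3* the ranges of neighbors in that order overlapped. *H2-T22*, *Tap2*, *H2-T24*, *H2-K2* and *H2-Q4* followed at means of 13.7, 11.8, 11.2, 9.06 and 8.92 TPM, and all other genes had means under 5 TPM. In all, 22 of the 53 genes had a mean of at least 1 TPM. The order pools the genotypes and does not hold in each of them. In *Gpr124-/-* alone, *H2-K1* (mean 25.5 TPM) stood below *H2-T23* (44.8 TPM), *Psmb10* (38.6 TPM) and *H2-M3* (25.9 TPM).

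The regulatory sequence upstream of the heavy chains is shown because *H2-K1*, *H2-D1*, *H2-Q4* and *H2-T23* did not move together, with *H2-K1* and *H2-Q4* lower in *Gpr124-/-*, *H2-T23* higher and *H2-D1* and the light chain *B2m* not called. RefSeq promoter windows of GRCm38.p6 (250 bases before to 50 after the annotated start) were matched by symbol for 38 of the 53 genes. Printed here are the 200 bases before the RefSeq start, read on the strand of the gene, for *H2-K1* (chr17:34000334-34000533, minus strand), *H2-D1* (chr17:35262894-35263093, plus strand), *H2-Q4* (chr17:35379417-35379616, plus strand), *H2-T23* (chr17:36032702-36032901, minus strand) and *B2m* (chr2:122147487-122147686, plus strand). Capitals mark matches, on either strand, to a core of the κB motif bound by NF-κB (GGGATTCCC), to a core of the interferon-stimulated response element (GAAANNGAA) and to the CCAAT box, whose inverted form is the Y box of MHC promoters. No letters belong to more than 1 match in these 5 sequences.
H2-K1: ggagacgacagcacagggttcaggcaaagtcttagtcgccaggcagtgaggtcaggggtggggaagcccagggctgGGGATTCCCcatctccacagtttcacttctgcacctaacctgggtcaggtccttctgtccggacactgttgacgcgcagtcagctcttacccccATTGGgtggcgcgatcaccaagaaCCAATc
H2-D1: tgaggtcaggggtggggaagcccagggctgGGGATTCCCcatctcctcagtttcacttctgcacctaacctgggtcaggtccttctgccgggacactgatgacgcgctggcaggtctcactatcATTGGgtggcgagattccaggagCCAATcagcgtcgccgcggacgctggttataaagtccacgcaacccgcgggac
H2-Q4: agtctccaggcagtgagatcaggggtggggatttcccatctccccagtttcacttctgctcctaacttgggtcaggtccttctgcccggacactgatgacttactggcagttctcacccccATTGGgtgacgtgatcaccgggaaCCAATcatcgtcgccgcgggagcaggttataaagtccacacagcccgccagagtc
H2-T23: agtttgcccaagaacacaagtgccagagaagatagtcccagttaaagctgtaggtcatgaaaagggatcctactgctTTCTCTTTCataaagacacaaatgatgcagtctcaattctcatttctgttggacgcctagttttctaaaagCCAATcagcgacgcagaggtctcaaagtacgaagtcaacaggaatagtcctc
B2m: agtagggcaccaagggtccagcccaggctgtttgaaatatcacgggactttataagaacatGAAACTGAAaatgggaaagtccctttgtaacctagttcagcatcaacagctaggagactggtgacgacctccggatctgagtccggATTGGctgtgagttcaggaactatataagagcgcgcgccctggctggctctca
The CCAAT box was found in 33 of the 38 windows (86.8%), against 37.4% of all 32851 promoter windows. Some windows lie away from the gene start in the count tables, such as those of *H2-DMa* (9664 bases) and *H2-DMb2* (1942 bases), which both hold the box. GGGATTCCC was found in 4 of 38 windows (10.5%), those of *H2-K1*, *H2-D1*, *H2-Q6* and *H2-Q7*, against 0.353% of all windows. It starts 124 bases before the RefSeq start of *H2-K1* and 170 bases before that of *H2-D1*. The next CCAAT match starts 30 and 76 bases before the same starts, at the same distance from GGGATTCCC in both genes. GAAANNGAA was found in 3 of 38 windows (7.89%), those of *B2m*, *H2-T22* and *H2-T23*, against 8.56% of all windows. Only these exact letters were searched, so unmarked sequence may hold other forms of the same elements. *H2-K1*, *H2-D1* and *H2-Q4* share the unmarked stretch agtttcacttct, and *H2-Q4* holds the unmarked stretch gggatttccc. These are matches of letters in the reference genome and do not show binding.

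In *Gpr124-/-* against wild type, 8 of the 29 tested genes were called by edgeR's quasi-likelihood test with both thresholds, a Benjamini-Hochberg adjusted p under 0.05 and a log2 fold change over 1 in either direction. That was 27.6% of the tested genes, and the same rule called 9.88% of all 16637 genes. Higher in *Gpr124-/-* were 4 genes (*H2-T23*, *H2-T24*, *H2-Ke6* and *Psmb8*), beside 5.67% of all genes, and lower were 4 genes (*H2-K1*, *H2-Q2*, *H2-Q4* and *H2-Q10*), beside 4.21% of all genes. *Tap2* passed the adjusted p but not the fold-change threshold, which made 9 of 29 genes past the p alone, beside 19.8% of all genes. The median log2 fold change of the 29 genes was 0.00, and that of all genes was −0.01.

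The class Ia heavy chains did not move together. *H2-K1* (ENSMUSG00000061232, chromosome 17, 33996017 to 34000333, minus strand) had 94.9 in JE1, 82.6 in JE6, 32.3 in KE8 and 71.9 in LE6 TPM in wild type and 22.3 in KE4, 26.8 in ME1, 24.8 in ME4 and 28 in ME5 TPM in *Gpr124-/-*. In *Gpr124ΔC/ΔC* it had 52 in JE3, 128 in JE4, 72.8 in LE2 and 69.3 in LE5 TPM. All 4 *Gpr124-/-* libraries lay below all wild-type libraries, but KE8 was far nearer to them than to the other wild-type embryos. *H2-K1* fell by 1.52 on the log2 scale with a standard error of 0.32 (edgeR adjusted p = 0.00425). *H2-D1* (ENSMUSG00000073411, chromosome 17, 35262730 to 35267499, plus strand) had 137 in JE1, 123 in JE6, 458 in KE8 and 341 in LE6 TPM in wild type and 358 in KE4, 334 in ME1, 376 in ME4 and 450.0 in ME5 TPM in *Gpr124-/-*. In *Gpr124ΔC/ΔC* it had 226 in JE3, 201 in JE4, 314 in LE2 and 323 in LE5 TPM. Its highest value of all 12 was in KE8, LE6 was just above the lowest *Gpr124-/-* value, and JE1 and JE6 were the lowest of all. Its log2 fold change in *Gpr124-/-* was 0.51 ± 0.33 (SE) and did not pass the test (edgeR adjusted p = 0.340).

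Summed over both class Ia heavy chains, the level was 335 ± 138 TPM in wild type, 346 ± 54.0 TPM in *Gpr124ΔC/ΔC* and 405 ± 51.4 TPM in *Gpr124-/-* (SD, n = 4 each). The ranges of the sum overlapped, from 206 to 491 TPM in wild type, 278 to 393 TPM in *Gpr124ΔC/ΔC* and 361 to 478 TPM in *Gpr124-/-*, and these sums were not tested. The light chain *B2m* differed by 0.14 ± 0.12 (log2 fold change, SE) between *Gpr124-/-* and wild type, which did not pass (edgeR adjusted p = 0.480).

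**Figure D1:**
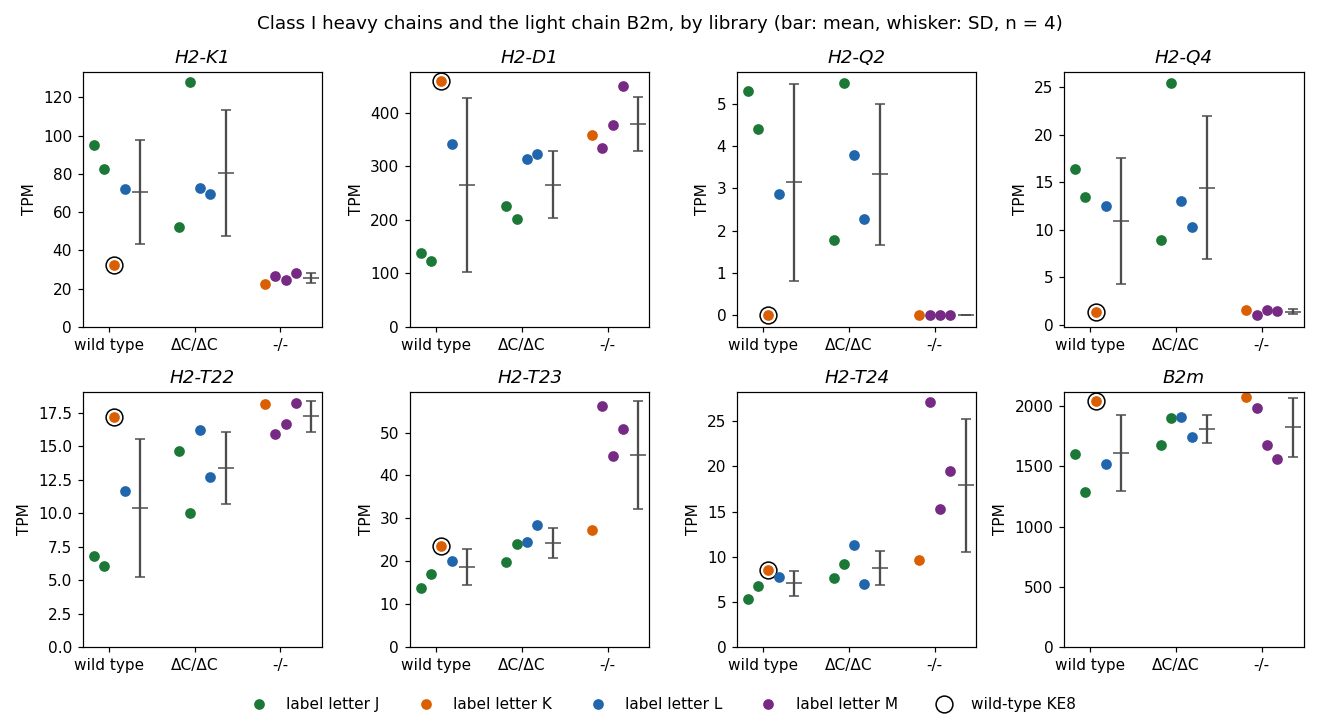
TPM of 7 class I heavy chain genes and the light chain *B2m* (vertical axes, linear) in the 12 libraries by genotype, with points colored by label letter, KE8 ringed, and the mean with SD (n = 4) beside each group. KE8 lies with the *Gpr124-/-* libraries for *H2-K1*, *H2-Q2*, *H2-Q4* and *H2-T22*, while for *H2-T23* and *H2-T24* KE8 and the *Gpr124-/-* embryo KE4 lie near each other and the 3 M libraries lie above them.

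Within the class Ib genes, 3 Q genes fell in *Gpr124-/-* and 2 T genes rose. *H2-Q2* (ENSMUSG00000091705, chromosome 17, 35342242 to 35346762, plus strand) had 5.30 in JE1, 4.41 in JE6, 0 in KE8 and 2.86 in LE6 TPM in wild type. It had 1.79 in JE3, 5.48 in JE4, 3.79 in LE2 and 2.28 in LE5 TPM in *Gpr124ΔC/ΔC* and 0 reads in all 4 *Gpr124-/-* libraries. The gene was thus detected in 7 of the 8 libraries that were not *Gpr124-/-*, and the exception was KE8. Set against a floor of 3 reads over the *Gpr124-/-* group, its level in CPM (reads scaled to the size of the library) was at least 59.4-fold higher in wild type, at least 79.0-fold higher in wild type without KE8, and at least 58.3-fold higher in *Gpr124ΔC/ΔC* (edgeR adjusted p = 0.00720 against wild type and 0.0174 against *Gpr124ΔC/ΔC*).

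*H2-Q4* (ENSMUSG00000035929, chromosome 17, 35379617 to 35385290, plus strand) had 16.4 in JE1, 13.5 in JE6, 1.33 in KE8 and 12.5 in LE6 TPM in wild type and 1.53 in KE4, 1.01 in ME1, 1.54 in ME4 and 1.51 in ME5 TPM in *Gpr124-/-*. It had 8.95 in JE3, 25.4 in JE4, 13.1 in LE2 and 10.3 in LE5 TPM in *Gpr124ΔC/ΔC*. Thus 7 of the 8 wild-type and *Gpr124ΔC/ΔC* libraries had at least 8.95 TPM, and KE8 fell within the range of *Gpr124-/-*. *H2-Q4* fell by 3.01 on the log2 scale with a standard error of 0.61 (edgeR adjusted p = 0.00329). *H2-Q10*, which encodes a secreted class Ib molecule, had 1.65 in JE1, 1.55 in JE6, 0.0693 in KE8 and 0.804 in LE6 TPM in wild type and 0.0796 in KE4, 0.0431 in ME1, 0 in ME4 and 0.188 in ME5 TPM in *Gpr124-/-*. In *Gpr124ΔC/ΔC* it had 0.598 in JE3, 1.67 in JE4, 1.39 in LE2 and 0.747 in LE5 TPM. With at most 5 reads in any *Gpr124-/-* library and 2 reads in KE8, it again placed KE8 with the knockouts, and its log2 fold change was −3.73 ± 0.90, adjusted p = 0.01000 by edgeR.

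*H2-T23*, which encodes Qa-1, the class Ib molecule that presents leader peptides of other class I chains to NK cell receptors, had 13.8 in JE1, 17 in JE6, 23.6 in KE8 and 19.997 in LE6 TPM in wild type and 27.4 in KE4, 56.1 in ME1, 44.6 in ME4 and 50.9 in ME5 TPM in *Gpr124-/-*. It had 19.8 in JE3, 24.1 in JE4, 24.6 in LE2 and 28.4 in LE5 TPM in *Gpr124ΔC/ΔC*. Its log2 fold change was 1.24 ± 0.22, adjusted p = 0.00140 (edgeR) against wild type. The 3 M libraries were the highest of all 12, whereas the fourth *Gpr124-/-* library, KE4, lay below the *Gpr124ΔC/ΔC* library LE5. *H2-T24* had 5.29 in JE1, 6.72 in JE6, 8.49 in KE8 and 7.80 in LE6 TPM in wild type and 9.59 in KE4, 27.1 in ME1, 15.3 in ME4 and 19.5 in ME5 TPM in *Gpr124-/-*. It had 7.60 in JE3, 9.19 in JE4, 11.3 in LE2 and 7.00 in LE5 TPM in *Gpr124ΔC/ΔC*, and its log2 fold change against wild type was 1.31 ± 0.29, adjusted p = 0.00622 (edgeR). Again KE4 lay within the range of *Gpr124ΔC/ΔC* and the M libraries above it. *H2-T22*, a neighbor of both, had 6.77 in JE1, 6.04 in JE6, 17.2 in KE8 and 11.7 in LE6 TPM in wild type, 14.6 in JE3, 9.998 in JE4, 16.2 in LE2 and 12.7 in LE5 TPM in *Gpr124ΔC/ΔC* and 18.1 in KE4, 15.9 in ME1, 16.6 in ME4 and 18.2 in ME5 TPM in *Gpr124-/-*. Its log2 fold change of 0.70 ± 0.27 did not pass (edgeR adjusted p = 0.0902), and here the highest wild-type value was that of KE8 and the *Gpr124ΔC/ΔC* library LE2 lay within the *Gpr124-/-* range.

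*H2-Ke6* is named for its place in the H2 region but encodes a steroid dehydrogenase (HSD17B8) that takes no part in antigen presentation. It had 2.85 in JE1, 3.29 in JE6, 3.05 in KE8 and 2.28 in LE6 TPM in wild type, 4.24 in JE3, 4.31 in JE4, 3.21 in LE2 and 2.62 in LE5 TPM in *Gpr124ΔC/ΔC* and 7.33 in KE4, 4.65 in ME1, 6.31 in ME4 and 6.09 in ME5 TPM in *Gpr124-/-*. No *Gpr124-/-* value was below a value of the other genotypes, and its log2 fold change was 1.03 ± 0.25, adjusted p = 0.0103 (edgeR). Of its exon bases, 85.4% also belong to *Gm20427* on the same strand, so the split of reads between the 2 annotations is uncertain. The call of *H2-Ke6* was lost without KE4 and without LE6.

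Of the 3 immunoproteasome subunits, *Psmb8* was called higher in *Gpr124-/-* and *Psmb9* and *Psmb10* were not called. *Psmb8*, whose product replaces the proteasome subunit β5, had 1.45 in JE1, 1.56 in JE6, 2.70 in KE8 and 3.11 in LE6 TPM in wild type. It had 2.91 in JE3, 5.22 in JE4, 3.84 in LE2 and 5.24 in LE5 TPM in *Gpr124ΔC/ΔC* and 4.24 in KE4, 3.91 in ME1, 3.58 in ME4 and 6.53 in ME5 TPM in *Gpr124-/-*, where all values were above the wild-type range. Its log2 fold change was 1.03 ± 0.29, adjusted p = 0.0236 (edgeR), just past the threshold, and the call was lost when JE1, JE6 or ME5 was left out. *Psmb9*, the replacement of β1, had 0.561 to 0.782 TPM in wild type, 0.666 to 1.72 TPM in *Gpr124ΔC/ΔC* and 0.806 to 1.23 TPM in *Gpr124-/-*, at a fitted log2 difference of 0.49 ± 0.30, adjusted p = 0.314 (edgeR). *Psmb10*, the replacement of β2, lies outside the H2 region on chromosome 8 and had 40.1 to 53 TPM, 31.7 to 56.5 TPM and 33.5 to 42.4 TPM in the same order, at −0.30 ± 0.14, adjusted p = 0.173 (edgeR, log2 fold change). *Psmb8* and *Psmb9* differed from *Psmb10* in level as well, at means of 3.69 and 0.887 TPM against 44.4 TPM.

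The 3 genes of peptide loading, all in the H2 region, were not called. *Tap2*, a subunit of the TAP transporter, had 6.72 in JE1, 8.49 in JE6, 11.9 in KE8 and 11.1 in LE6 TPM in wild type and 14.8 in KE4, 14.3 in ME1, 13.3 in ME4 and 14.8 in ME5 TPM in *Gpr124-/-*. In *Gpr124ΔC/ΔC* it had 8.90 in JE3, 9.31 in JE4, 12.7 in LE2 and 14.8 in LE5 TPM. Every *Gpr124-/-* value was above every wild-type value, with KE8 the highest of wild type, and the log2 fold change was 0.55 ± 0.18, adjusted p = 0.0474 (edgeR), under the fold-change threshold. *Tap1*, its partner, had 1.10 to 2.01 TPM in wild type and 1.65 to 2.42 TPM in *Gpr124-/-* (0.34 ± 0.26, adjusted p = 0.424, log2 fold change by edgeR). *Tapbp*, which encodes tapasin, had 72.9 to 94.7 TPM and 53.7 to 79.8 TPM (−0.31 ± 0.13, adjusted p = 0.135, log2 fold change by edgeR). *Nlrc5*, the transactivator of class I genes, had 0 to 13 reads per library and was not tested; its highest level was 0.249 TPM in JE3.

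Among the 12 class II genes, 4 were tested, and none was called in *Gpr124-/-* against wild type. *H2-Ab1*, the β chain of I-A, had 5.57 in JE1, 5.60 in JE6, 0.460 in KE8 and 6.78 in LE6 TPM in wild type and 3.38 in KE4, 2.52 in ME1, 3.96 in ME4 and 2.40 in ME5 TPM in *Gpr124-/-*. It had 4.77 in JE3, 11.2 in JE4, 5.05 in LE2 and 5.60 in LE5 TPM in *Gpr124ΔC/ΔC*. KE8 had the lowest value of all 12 libraries, below every *Gpr124-/-* value, and the log2 fold change was −0.64 ± 0.54, adjusted p = 0.480 (edgeR). *H2-Ob*, a chain of the class II regulator H2-O, was the reverse, with 0 in JE1, 0 in JE6, 0.955 in KE8 and 0.0482 in LE6 TPM in wild type and 0.658 in KE4, 0.773 in ME1, 0.876 in ME4 and 1.25 in ME5 TPM in *Gpr124-/-*. In *Gpr124ΔC/ΔC* it had 0.155 in JE3, 0 in JE4, 0.425 in LE2 and 0.0606 in LE5 TPM, and its log2 fold change was 1.81 ± 0.95, adjusted p = 0.223 (edgeR). *H2-Aa* (the I-A α chain) had 0.161 to 1.06 TPM in wild type and 0.738 to 1.14 TPM in *Gpr124-/-*, and *H2-DMa*, a chain of the peptide-exchange factor H2-DM, had 0.734 to 1.30 TPM and 0.422 to 2.60 TPM. *Cd74*, the invariant chain, had 5.19 in JE1, 6.94 in JE6, 1.60 in KE8 and 7.87 in LE6 TPM in wild type and 6.17 to 8.11 TPM in *Gpr124-/-*. Its *Gpr124ΔC/ΔC* values were 1.499 in JE3, 1.97 in JE4, 1.90 in LE2 and 7.58 in LE5 TPM, so that KE8 was lowest among wild-type libraries but not lower than JE3. As given above, *Ptprc* and the C1q genes were at or near 0 reads in most libraries, and leukocyte markers with more reads moved in both directions, with *Fcer1g* and *P2ry12* higher and *Laptm5* lower in *Gpr124-/-*. Their part in the class II levels was not tested.

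In *Gpr124ΔC/ΔC* against wild type, 0 of the 29 genes were called, beside 1.92% of all genes, and 0 passed an adjusted p under 0.05 by edgeR or were called by DESeq2. At an unadjusted p under 0.05 there were 2 genes (*Psmb8* and *Tap1*), beside 14.4% of all genes. *Psmb8* had the largest of these, at a log2 difference of 0.88 ± 0.29 (edgeR adjusted p = 0.133). The median log2 fold change was 0.10 for the 29 genes and 0.01 for all genes. A p that misses the threshold does not show that the genotypes were alike, and for *H2-K1* the fitted difference was 0.09 ± 0.31 (SE).

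Compared with *Gpr124ΔC/ΔC*, 5 of 29 genes were called in *Gpr124-/-* (17.2%), beside 4.6% of all genes. *H2-T24* was higher, beside 2.67% of all genes called higher, and *H2-K1*, *H2-Q2*, *H2-Q4* and *H2-Q10* were lower, beside 1.94% of all genes. By edgeR the log2 fold changes were 1.09 ± 0.29, adjusted p = 0.0354 for *H2-T24*, −1.60 ± 0.32, adjusted p = 0.00808 for *H2-K1*, −3.30 ± 0.61, adjusted p = 0.00538 for *H2-Q4* and −3.70 ± 0.91, adjusted p = 0.0237 for *H2-Q10*. *H2-T23* (0.94 ± 0.22, adjusted p = 0.0182) and *H2-Q1* (−0.72 ± 0.20, adjusted p = 0.0421) passed the adjusted p alone by edgeR. *H2-T24* lost its call in 7 of the 8 fits that left out a *Gpr124ΔC/ΔC* or *Gpr124-/-* library, all but the one without KE4, and *H2-Q10* lost it without JE4, LE2, ME1 or ME4. With the label letter as a term, all 5 calls were lost and *H2-Q2*, *H2-Q4*, *H2-Q10* and *H2-T24* turned direction. No *Gpr124ΔC/ΔC* library resembled KE8 in *H2-Q2* or *H2-Q4*, as their values above show.

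**Figure D2:**
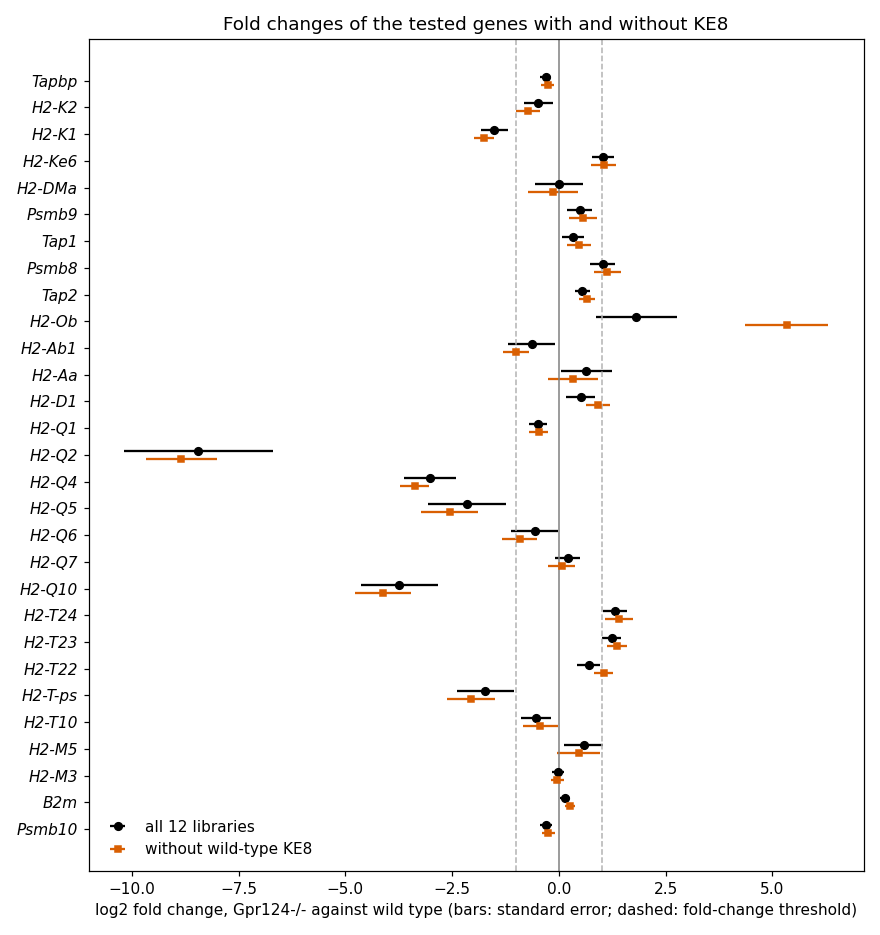
Log2 fold changes with standard errors (horizontal axis) of the 29 tested genes in *Gpr124-/-* against wild type, in order along chromosome 17 with *B2m* and *Psmb10* last, from the edgeR fit of all 12 libraries (circles) and from the fit without KE8 (squares). Dashed lines mark the fold-change threshold of 1, the fitted value of *H2-Q2* against libraries at 0 reads depends on the prior count and is no measure of its size, and *H2-Ob* moves furthest between the fits.

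The wild-type library KE8 was compared with the other wild-type libraries gene by gene. KE8 was said to side with the knockouts where the other 3 wild-type libraries and the 4 *Gpr124-/-* libraries did not overlap in log2 CPM and KE8 lay nearer to the *Gpr124-/-* mean. Of the 29 genes, 19 had no overlap between those 3 and 4 libraries (65.5%), beside 27% of all genes, and KE8 sided with the knockouts for 13 genes (44.8%), beside 5.16% of all genes. These were the class Ia genes *H2-K1* and *H2-D1*, the class Ib genes and pseudogenes *H2-K2*, *H2-Q2*, *H2-Q4*, *H2-Q5*, *H2-Q6*, *H2-Q10*, *H2-T22* and *H2-T-ps*, the class II genes *H2-Ab1* and *H2-Ob*, and *Tap2*. By the same rule JE1 sided with the knockouts for 1 gene (3.45%, beside 3.61% of all genes), JE6 for 3 genes (10.3%, beside 5.65%) and LE6 for 1 gene (3.45%, beside 3.47%). KE8 was counted because it was already known from these data to stand apart, so the counts are a description.

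For 6 genes the other 3 wild-type libraries and the knockouts did not overlap and KE8 was not nearer to the *Gpr124-/-* mean. These were *H2-Ke6*, *H2-Q1*, *H2-T23*, *H2-T24*, *Psmb8* and *Psmb9*. The place of KE8 can be given on a scale that is 0 at the mean log2 CPM of the other wild-type libraries and 1 at the *Gpr124-/-* mean. On it, KE8 was at 1.0 for *H2-Q2*, 1.02 for *H2-Q4*, 0.98 for *H2-Q10*, 0.99 for *H2-T22*, 1.04 for *H2-Ob* and 0.81 for *H2-K1*. It was beyond the knockout mean, at 1.27 for *H2-D1*, 1.21 for *H2-T-ps*, 1.53 for *H2-Q5*, 1.93 for *H2-K2*, 2.81 for *H2-Q6* and 3.28 for *H2-Ab1*, whereas for *Tap2* it was at 0.59. The place of KE8 was 0.32 for *H2-T23*, 0.24 for *H2-T24*, 0.06 for *H2-Ke6* and 0.36 for *Psmb8*. For *H2-T23* and *H2-T24*, KE8 was above the other 3 wild-type libraries and close to KE4, and its low place on the scale rests on a *Gpr124-/-* mean that the M libraries raise. *Psmb9*, at 0.49, was about midway. All 4 genes called lower in *Gpr124-/-* had KE8 nearer to the knockout mean, and none of the 4 called higher did.

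The lower-level genes of this pattern add further detail. *H2-Q5* had 1.53 in JE1, 2.40 in JE6, 0 in KE8 and 1.05 in LE6 TPM in wild type, 0.817 in JE3, 2.68 in JE4, 1.83 in LE2 and 0.960 in LE5 TPM in *Gpr124ΔC/ΔC* and 0.761 in KE4, 0.236 in ME1, 0.0868 in ME4 and 0.103 in ME5 TPM in *Gpr124-/-*, so that KE8 at 0 was lower than each knockout. *H2-Q6* had 1.23 in JE1, 1.39 in JE6, 0.144 in KE8 and 1.24 in LE6 TPM in wild type, 0.468 in JE3, 1.74 in JE4, 0.857 in LE2 and 1.65 in LE5 TPM in *Gpr124ΔC/ΔC* and 0.830 in KE4, 0.719 in ME1, 0.795 in ME4 and 0.471 in ME5 TPM in *Gpr124-/-*, where KE8 again was lowest. The pseudogene *H2-T-ps* had 3.61 in JE1, 5.30 in JE6, 0.565 in KE8 and 3.42 in LE6 TPM in wild type, 1.52 in JE3, 5.20 in JE4, 4.82 in LE2 and 4.12 in LE5 TPM in *Gpr124ΔC/ΔC* and 1.30 in KE4, 0.527 in ME1, 0.259 in ME4 and 1.996 in ME5 TPM in *Gpr124-/-*. *H2-K2*, annotated as a transcribed pseudogene, lies near *H2-K1* and had 11.3 in JE1, 9.18 in JE6, 4.31 in KE8 and 13.6 in LE6 TPM in wild type, 5.73 in JE3, 16.1 in JE4, 11.1 in LE2 and 9.29 in LE5 TPM in *Gpr124ΔC/ΔC* and 5.61 in KE4, 6.79 in ME1, 7.63 in ME4 and 8.12 in ME5 TPM in *Gpr124-/-*, with KE8 lowest of the 12 libraries. *H2-Q1* had 2.92 in JE1, 2.35 in JE6, 3.11 in KE8 and 3.51 in LE6 TPM in wild type and 2.72 in KE4, 2.03 in ME1, 1.88 in ME4 and 2.06 in ME5 TPM in *Gpr124-/-*, and here KE8 lay with wild type. Low values were not limited to KE8 and the knockouts, since JE3 lay within the *Gpr124-/-* range for *H2-K2* and *H2-T-ps*, and was next to the lowest *Gpr124-/-* value for *H2-Q6* (0.468 and 0.471 TPM). *H2-M5*, *H2-Q7* and *H2-T10* had at most 1.32, 0.7 and 0.998 TPM and were called in none of the 3 comparisons. *H2-M3*, which presents formylated peptides, lies at the far end of the region and had 22.1 to 28.7 TPM in wild type, 19.8 to 34 TPM in *Gpr124ΔC/ΔC* and 22.6 to 29.5 TPM in *Gpr124-/-*, with KE8 at 24.9 TPM, inside all 3 ranges.

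**Figure D3:**
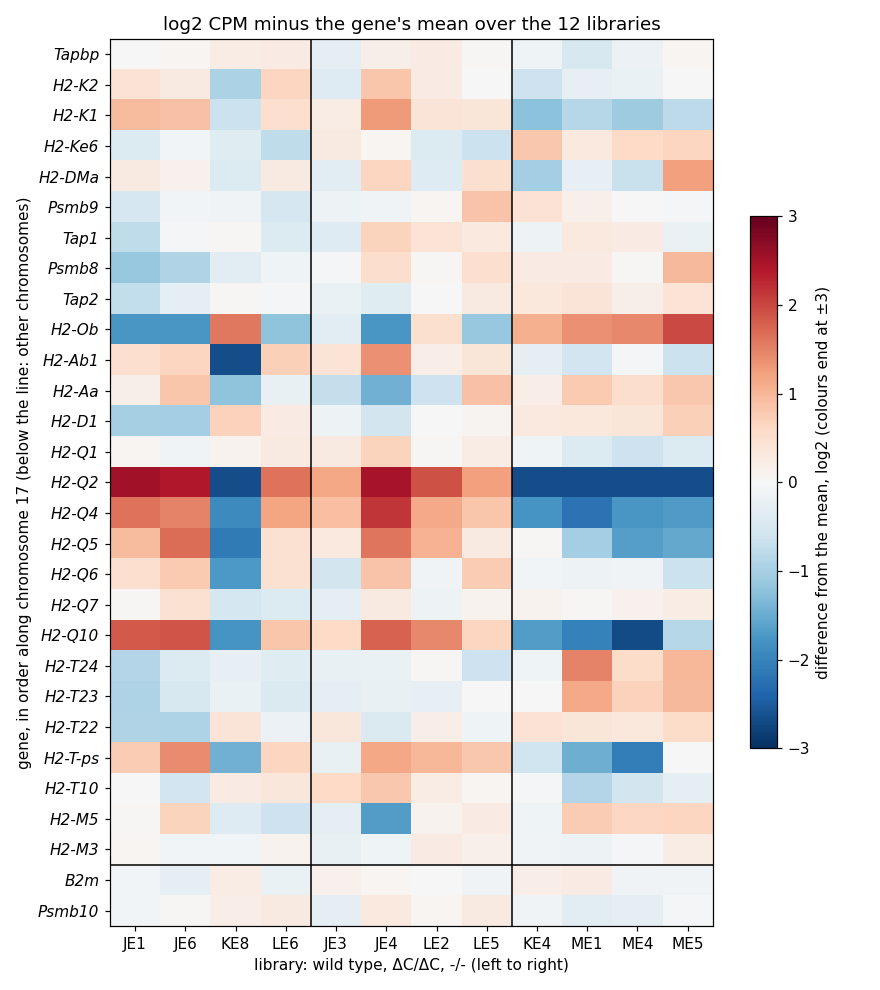
Log2 CPM of the 29 tested genes (rows, in order along chromosome 17, with *B2m* and *Psmb10* below the line) in the 12 libraries (columns, by genotype), colored by the difference from the gene's mean over all libraries. In the rows of *H2-Q2*, *H2-Q4*, *H2-Q10* and *H2-T-ps*, the KE8 column is blue like those of *Gpr124-/-*, and in *H2-Ob* it is red like them.

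The ratio of *H2-D1* to *H2-K1* compares 2 genes within each library and so does not depend on depth. It was 1.45 in JE1, 1.49 in JE6 and 1.57 in the *Gpr124ΔC/ΔC* library JE4. It was 4.74 in LE6, 4.34 in JE3, 4.31 in LE2 and 4.66 in LE5. It was 14.2 in KE8, 16 in KE4, 12.4 in ME1, 15.2 in ME4 and 16.1 in ME5. The values thus fell into 3 ranges with no library between them, and only the highest range held *Gpr124-/-* libraries. The first 2 ranges each held wild-type and *Gpr124ΔC/ΔC* embryos, JE3 differed from the 3 other J libraries, and the highest range held both K libraries. By genotype the ratio was 5.47 ± 6.02 in wild type, 3.72 ± 1.44 in *Gpr124ΔC/ΔC* and 14.9 ± 1.70 in *Gpr124-/-* (SD, n = 4 each). The 2 mutant genotypes came from separate intercrosses of heterozygotes, and the H2 alleles of the parents and the cross of each embryo are not given in the sources used here, so the genotype at *Gpr124* and that at H2 cannot be told apart in these comparisons.

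**Figure D4:**
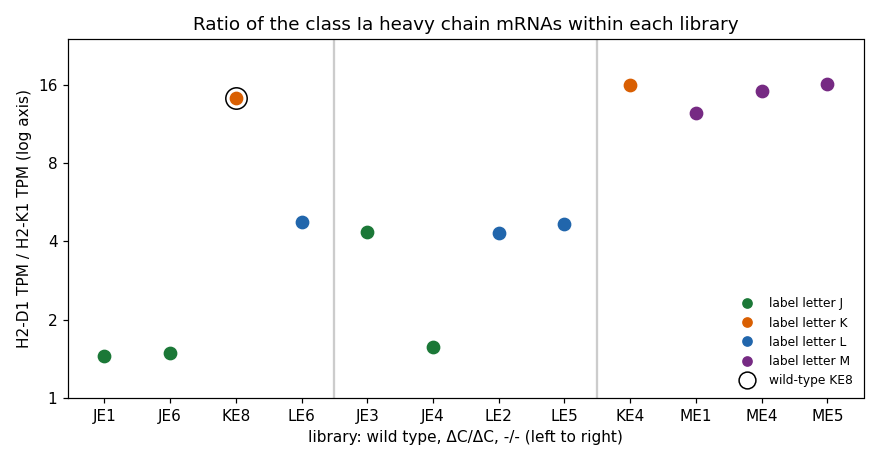
Ratio of *H2-D1* TPM to *H2-K1* TPM (vertical axis, logarithmic) in each of the 12 libraries (horizontal axis, by genotype), colored by label letter, with KE8 ringed. The ratios lie near 1.5 in 3 libraries, between 4.31 and 4.74 in 4 libraries, and between 12.4 and 16.1 in KE8 and the 4 *Gpr124-/-* libraries.

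When KE8 was left out of the fit, 13 of 29 genes were called in *Gpr124-/-* against wild type (44.8%), while the share of all genes was 9.36%. KE8 was left out because it was known to lie with the knockouts for part of these genes, which by itself makes the fold changes of such genes larger and their errors smaller, so the values are a description and no independent support. All 8 genes called with KE8 were called without it, and 5 were added, each of them among the 13 genes for which KE8 sided with the knockouts. The log2 fold changes (SE) of the added genes became 1.05 ± 0.22 for *H2-T22*, 5.34 ± 0.97 for *H2-Ob*, −1.01 ± 0.30 for *H2-Ab1*, −2.56 ± 0.67 for *H2-Q5* and −2.06 ± 0.56 for *H2-T-ps*. Those of *H2-D1*, *H2-K1*, *H2-Q4* and *H2-Q10* became 0.91 ± 0.28, −1.76 ± 0.24, −3.38 ± 0.33 and −4.12 ± 0.66. In *Gpr124-/-* against *Gpr124ΔC/ΔC* the fit without KE8 called 8 genes in place of 5, and in *Gpr124ΔC/ΔC* against wild type it called 0.

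Within the letter K, KE4 and KE8 are the only *Gpr124-/-* and wild-type embryos that share a label letter, with 1 library each and so no error of their own. KE4 minus KE8 in log2 CPM was 0.14 for *H2-Q4*, 0.07 for *H2-Q10*, 0.17 for *H2-T23*, 0.13 for *H2-T24* and 0.03 for *H2-T22*, and both embryos were at 0 reads for *H2-Q2*. It was −0.57 for *H2-K1*, 0.58 for *Psmb8* and 1.17 for *H2-Ke6*, the same directions as in the full comparison. In 5 of 29 genes (17.2%) KE4 and KE8 differed by more than 1, beside 13.9% of all genes, and these were *H2-Ab1* (2.39), *H2-Q5* (2.171), *H2-Q6* (1.66), *H2-Aa* (1.40) and *H2-Ke6*. A fit with the label letter as a term, in which the comparison of *Gpr124-/-* with wild type rests on KE4 and KE8, called none of the 8 genes. It gave *H2-Ab1* a log2 fold change of 2.80, which passed both thresholds only with the spread taken from the other libraries, since each side is 1 library. The same fit turned the direction of *H2-Q4* and *H2-Q10*, to 0.15 and 0.14.

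The neighborhood on chromosome 17 was then examined. Between *Tapbp* and *H2-M2* (GRCm38, chromosome 17, 33915899 to 37483552, 3.57 Mb) lay 103 other tested genes, of which 11 (10.7%) were called in *Gpr124-/-* against wild type, close to the 9.88% of all genes. Higher were *Ly6g6c*, *Ly6g6f*, *Mpig6b* and *Vwa7*, and lower were *Egfl8*, *Gm10499*, *Gm11127*, *Gm18734*, *Ly6g5c*, *Ppt2* and *Psors1c2*. Neighbors were set apart by symbol alone, and whether *Gm10499*, *Gm11127* and *Gm18734* are themselves class I genes was not checked. *Gm11127*, a protein-coding gene between *H2-T22* and *H2-T-ps*, had 20.2 in JE1, 14.6 in JE6, 0.224 in KE8 and 10.2 in LE6 TPM in wild type and 0.257 in KE4, 0.697 in ME1, 0.205 in ME4 and 0 in ME5 TPM in *Gpr124-/-*. The pseudogene *Gm10499* had 6.34 in JE1, 5.81 in JE6, 0.0855 in KE8 and 2.76 in LE6 TPM in wild type and 0 in KE4, 0 in ME1, 0.157 in ME4 and 0.0930 in ME5 TPM in *Gpr124-/-*. In both, KE8 lay within the *Gpr124-/-* range. KE8 sided with the knockouts for 12 of the 103 neighbors (11.7%), beside 5.16% of all genes, with *Gm10499*, *Gm11127* and *Gm18734* among the 12. Another was the ribosomal protein gene *Rps18*, with 276 in JE1, 255 in JE6, 512 in KE8 and 399.6 in LE6 TPM in wild type and 596 in KE4, 528 in ME1, 515 in ME4 and 524 in ME5 TPM in *Gpr124-/-*. On the rest of chromosome 17 KE8 sided with the knockouts for 8.63% of 626 genes, of which 8.79% were called.

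Some called neighbors did not place KE8 with the knockouts. *Egfl8*, which encodes a protein with EGF-like domains, had 217 in JE1, 179.6 in JE6, 252 in KE8 and 278 in LE6 TPM in wild type and 76.5 in KE4, 59.2 in ME1, 62.4 in ME4 and 71.6 in ME5 TPM in *Gpr124-/-*, and fell by 1.81 on the log2 scale (edgeR adjusted p = 1.31e-06). *Psors1c2* had 19 in JE1, 19 in JE6, 15.2 in KE8 and 19.5 in LE6 TPM in wild type and 3.90 in KE4, 4.003 in ME1, 1.47 in ME4 and 1.94 in ME5 TPM in *Gpr124-/-* (−2.74 ± 0.30, adjusted p = 3.37e-05, log2 fold change by edgeR). Both genes had their 4 *Gpr124-/-* values below all wild-type values, KE8 included. *Mpig6b* and *Ly6g6f*, genes of megakaryocytes and platelets, were higher in *Gpr124-/-* (2.30 ± 0.41, adjusted p = 0.00155 and 2.46 ± 0.46, adjusted p = 0.00198, log2 fold changes by edgeR), beside the higher erythroid markers given above. Both genes, like *Fcer1g* and *P2ry12* of the leukocyte list, had their highest values in the M libraries. In *Gpr124ΔC/ΔC* against wild type 2 of the 103 neighbors were called, *Ppt2* and *Psors1c2*, both lower (1.94% beside 1.92% of all genes).

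**Figure D5:**
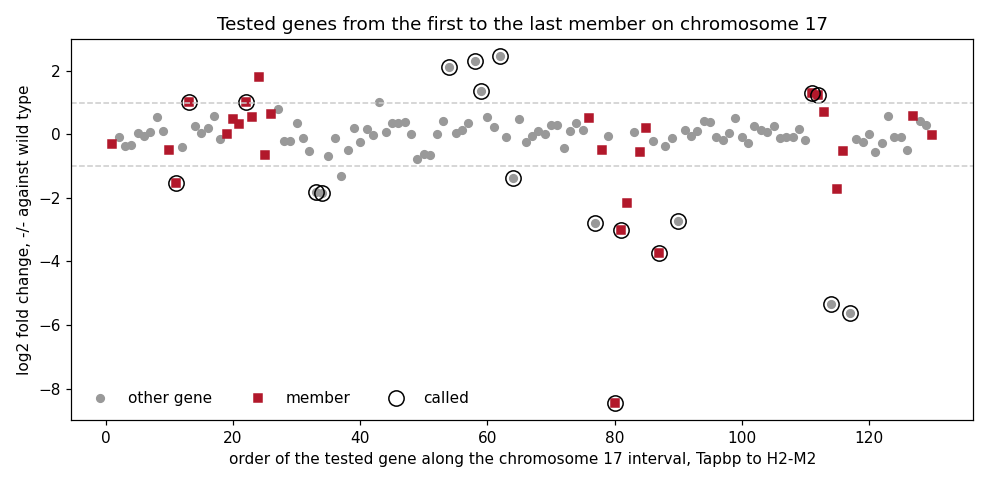
Log2 fold changes in *Gpr124-/-* against wild type (vertical axis) of the tested genes from *Tapbp* to *H2-M2*, in their order along chromosome 17 (horizontal axis), with the MHC and antigen presentation genes as squares, the 103 neighbors as circles and called genes ringed. The 19 called genes lie among uncalled genes in several places along the interval, the deepest falls are *H2-Q2*, *Gm10499* and *Gm11127*, and the fitted value of *H2-Q2* is against libraries at 0 reads.

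The regulators of class I genes and interferon signaling came next. Of 25 such genes, all tested, 2 were called higher in *Gpr124-/-* and none lower, which made 8% beside 9.88% of all genes (median log2 fold change −0.12). *Irf1*, an interferon-induced factor that binds class I promoters, had 9.78 in JE1, 9.07 in JE6, 15.2 in KE8 and 10.8 in LE6 TPM in wild type. It had 15.1 in JE3, 27.5 in JE4, 36 in LE2 and 22.7 in LE5 TPM in *Gpr124ΔC/ΔC* and 32.3 in KE4, 26.1 in ME1, 27.7 in ME4 and 27.2 in ME5 TPM in *Gpr124-/-*, with log2 fold changes of 1.08 ± 0.19, adjusted p = 0.00601 and 1.30 ± 0.19, adjusted p = 0.000392 by edgeR. *Irf8*, a factor of myeloid cells, had 0.127 to 0.363 TPM in wild type and 3.85 to 10.5 TPM in *Gpr124-/-* (4.64 ± 0.50, adjusted p = 2.68e-05, log2 fold change by edgeR).

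Of 25 tested interferon-stimulated genes, 1 was called higher in *Gpr124-/-* and 3 lower, beside 5.67% and 4.21% of all genes (median 0.30, against −0.01 for all genes). *Ifitm2*, which encodes an antiviral membrane protein, had 239 in JE1, 259.9 in JE6, 266 in KE8 and 268 in LE6 TPM in wild type and 985 in KE4, 1007 in ME1, 1019.5 in ME4 and 1119 in ME5 TPM in *Gpr124-/-*. In *Gpr124ΔC/ΔC* it had 601 in JE3, 610.4 in JE4, 628 in LE2 and 599.8 in LE5 TPM, and its log2 fold changes against wild type were 1.96 ± 0.10, adjusted p = 9.85e-08 in *Gpr124-/-* and 1.17 ± 0.09, adjusted p = 2.99e-05 in *Gpr124ΔC/ΔC* (edgeR). Here KE8 lay with the other wild-type embryos. The guanylate-binding protein genes *Gbp2*, *Gbp3* and *Gbp4* were lower in *Gpr124-/-*, with log2 fold changes of −1.06, −1.10 and −1.19 (edgeR adjusted p = 0.0142, 0.00560 and 0.00421). In *Gpr124ΔC/ΔC*, 2 genes of this list were called higher (*Ifi44* and *Ifitm2*) and none lower, 8% beside 1.92% of all genes. The median log2 fold change of the list was 0.49 there, against 0.01 for all genes. At an unadjusted p under 0.05 (edgeR) there were 12 of the 25 genes in *Gpr124ΔC/ΔC*, beside 14.4% of all genes. In *Gpr124-/-* against wild type there were 14 of 25, beside 30.6% of all genes.

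Other parts of the presentation machinery showed no calls. Of 10 genes of peptide loading and trimming, 18 constitutive proteasome subunits and partners, and 9 class II pathway genes outside H2, 0 were called by edgeR in each of the 3 comparisons, and in *Gpr124-/-* against wild type 4, 2 and 4 of them had an unadjusted p under 0.05, beside 30.6% of all genes. MHC-like molecules encoded outside H2 did include calls, 4 of 10 tested genes beside 9.88% of all genes. Of these, *H60b*, *Raet1d* and *Raet1e*, ligands of the NK cell receptor NKG2D, were higher in *Gpr124-/-*, and *Fcgrt*, the neonatal Fc receptor, was lower. The annotated starts of *H60b* and *Raet1e* are 22158586 and 22158569, so their calls may rest in part on shared reads, which was not checked. *Raet1e* had 5.59 in JE1, 3.89 in JE6, 7.32 in KE8 and 6.83 in LE6 TPM in wild type and 26.6 in KE4, 29.3 in ME1, 31 in ME4 and 26.4 in ME5 TPM in *Gpr124-/-*. In *Gpr124ΔC/ΔC*, *Raet1e* had 19.6 in JE3, 18.2 in JE4, 26.3 in LE2 and 12.5 in LE5 TPM and was also called higher than in wild type (log2 fold change 1.63 ± 0.22, adjusted p = 0.00104 by edgeR). *Fcgrt* had 166 in JE1, 145 in JE6, 199.7 in KE8 and 169 in LE6 TPM in wild type and 108 in KE4, 59.8 in ME1, 73.6 in ME4 and 62.4 in ME5 TPM in *Gpr124-/-*. For both genes all *Gpr124-/-* values lay beyond the wild-type range, and KE8 had the highest wild-type value of each, toward the knockouts for *Raet1e* and away from them for *Fcgrt*. Their log2 fold changes were 2.23 ± 0.22, adjusted p = 1.47e-05 and −1.21 ± 0.16, adjusted p = 0.000157 by edgeR.

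Class I genes resemble each other, and the assignment of their reads is uncertain to that extent. Of all distinct 75-base words of its transcripts, *H2-K1* shared 3.1% with other genes, *H2-D1* 5.56%, *H2-Q2* 8.07%, *H2-Q10* 12.52% and *H2-T23* 5.91%, and *B2m* shared 0. The shares were 20.7% for *H2-Q4*, with 13.42% of all its words shared with *Gm11131* on the opposite strand, and 39.97% for *H2-T22*. Whether counting used strand is not given in the sources used here, so reads of *H2-Q4* and *H2-T22* cannot be told apart from those of their antisense partners where they overlap.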

How the data were processed

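RNA-seq of sorted CD31+ cells from E15.5 forebrains was analyzed for 12 embryos, 4 of each of 3 genotypes. RNA was isolated with a PicoPure kit, libraries were made with SMART-Seq V4 after poly(A) selection and sequenced as paired ends on a HiSeq instrument. The submitters' processing notes name bcl2fastq 2.17 and mm10, and the aligner, the counter and its strand setting are not given in the sources used here. The authors deposited read counts per gene for each library, without normalization, and a table of TPM values, which are counts scaled by gene length and library total. Reads from near-identical class I genes, or from alleles unlike the reference, may be lost or misassigned in such counts.

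Counts were tested with edgeR 4.0.16 (R 4.3.3). Low genes were removed with filterByExpr by genotype (count minimum 10, total count minimum 15), TMM factors were applied, and a single quasi-likelihood fit of the 12 libraries had genotype as its only term. Each of 3 comparisons was adjusted by Benjamini-Hochberg over all genes tested, and calls needed an adjusted p under 0.05 together with a log2 fold change over 1 in either direction. Standard errors are the fold change divided by the square root of the F statistic. The model was tested on simulated data with known changes. Log2 CPM used a prior count of 2. Identifiers were matched to GENCODE vM21 (49056 of 49315). The text names the 8 singly listed genes, *H2-K1*, *H2-D1*, every other gene called, placed with the knockouts in KE8 or at a mean of at least 1 TPM, and called genes of fixed lists. The genes, lists and the attention to KE8 were chosen with earlier results of these data known. The alternatives were upper-quartile factors, no filter on low counts, a mean of at least 50 counts, the label letter as a term, DESeq2 1.42.0, only the 2 compared genotypes, no fold-change threshold, limma 3.58.1 on log2(TPM + 1) and log2(TPM + 0.1) for a mean of at least 1 TPM, limma without that filter, and each library left out in turn. Tables were made in Python 3.11.15 with pandas 2.3.3, and plots with matplotlib 3.10.9. The precision is limited by 4 embryos per genotype and, for low genes, by the counts printed.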

Additional observations from a re-analysis of the deposited data

Results flagged for a closer look

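In groups of 4 libraries, a library was looked at again where its gap to the nearest other library took up more of the range of the group than Dixon's 95% critical value. This was done for the TPM of the 29 tested genes, the summed class Ia level and the ratio of *H2-D1* to *H2-K1*, in 92 groups, of which 6 met it, where chance gives about 1 group in 20. In wild type, KE8 stood apart for *H2-Ob*, at 0.955 TPM against 0 to 0.0482 TPM in the other 3 embryos, and for *H2-Q6*, at 0.144 TPM against 1.23 to 1.39 TPM. In *Gpr124ΔC/ΔC*, JE4 stood apart for *H2-Ab1*, at 11.2 TPM against 4.77 to 5.60 TPM, and for the ratio of *H2-D1* to *H2-K1*, at 1.57 against 4.31 to 4.66. In *Gpr124-/-*, ME1 stood apart for *H2-Q4*, at 1.01 TPM against 1.51 to 1.54 TPM, and for *H2-Q7*, at 0.527 TPM against 0.608 to 0.615 TPM.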

How the results depend on the processing

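In *Gpr124ΔC/ΔC* against wild type, 0 genes were called in every alternative run. In *Gpr124-/-* against wild type, 8 genes were called with upper-quartile factors and without the filter, 9 with DESeq2, 9 without the fold-change threshold, 7 with limma on log2(TPM + 0.1) and 6 with only the 2 compared genotypes. There were 5 with limma on log2(TPM + 1), 3 with it and no filter, 5 with a mean of at least 50 counts, which leaves 14 genes, and 1 with the label letter as a term. Leaving out single libraries gave 7 to 13, with the 13 from the fit without KE8. In *Gpr124-/-* against *Gpr124ΔC/ΔC*, in place of 5, there were 3 with limma on either log2 scale, 2 with limma and no filter, 3 with a mean of at least 50 counts and 0 with the label letter, and 3 to 8 without single libraries, the 3 without JE4, LE2, ME1 or ME4 and the 8 without KE8. Of 586 values of 29 fold changes under the alternatives, 14 reversed, all with the label letter as a term. In *Gpr124-/-* against wild type these were *B2m* (−0.019), *H2-Ab1* (2.80), *H2-D1* (−0.40), *H2-Ob* (−0.58), *H2-Q10* (0.14), *H2-Q4* (0.15), *H2-Q5* (5.83), *H2-T-ps* (1.13) and *Tap1* (−0.18). In *Gpr124-/-* against *Gpr124ΔC/ΔC* they were *H2-Q10* (0.42), *H2-Q2* (0.34), *H2-Q4* (0.17), *H2-T23* (−0.22) and *H2-T24* (−0.17). In that fit *Gpr124-/-* is set against wild type through KE4 and KE8 alone. The cause of the other changes was not tested. On log2(TPM + 1) rather than log2 CPM, an alternative chosen after seeing the data, KE8 was placed with the knockouts for 13 genes. The count was as before, but the genes were not all the same. *H2-D1* was not placed so on this scale, since LE6 (341 TPM) lay above ME1 (334 TPM) and the libraries overlapped. The label letter was the only block that could be fitted. By replicate number, no paired analysis was possible because the labels give no such numbers. Genes with few reads, such as *H2-Ob*, *H2-Q5* and *H2-Q10*, carry a large counting error.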
